A study of Mus musculus and Mus spretus with 72 samples.

Results

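Genes of the cytokine and chemokine system were compared in brain, liver/kidney and testis of mice of 2 species. They were taken by symbol: those that begin with Ccl, Cxcl, Ccr or Cxcr and a digit, or with Il and a digit, on a probe that carries 1 symbol alone. That gave 108 of the 14386 gene symbols on the array, measured by 113 probes. By role they were 22 CC chemokines, 11 CXC chemokines, 15 chemokine receptors, 28 interleukins on 29 probes, 28 interleukin receptor subunits on 32 probes and 4 antagonists, binding proteins and others. Each of 72 2-colour arrays set the RNA of 1 male mouse, about 12 weeks old, against pooled RNA from that tissue of 9 C57BL6 mice, a laboratory strain. Each tissue had 6 arrays of dom (Mus musculus domesticus), 6 of mus (M. m. musculus), 6 of ssp (M. musculus with no sub-species named), 3 of cas (M. m. castaneus) and 3 of spretus (M. spretus). Dom, mus, ssp and cas together are referred to as the musculus groups, and an array is named by its group and the animal number in its label. Liver and kidney are labelled as 1 sample, and no allele, transgene or treatment is recorded. The title of brain array mus 8 says mus while its channel label says domesticus, and it was kept in mus.

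Chemokines are small secreted proteins that direct the migration of leukocytes through G protein-coupled receptors, whereas most interleukins act through receptor complexes that share signalling chains. CC and CXC chemokines are told apart by the spacing of their first cysteines, and most receptors bind ligands of 1 of these families. In healthy brain, liver, kidney and testis many of these genes are expressed by few cells, such as resident macrophages, endothelium and stroma.

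Values are deposited log ratios, read as log2 of sample over pool, which is the likely direction from the channel labels but is not stated. A level is the log2 ratio to the tissue's pool after centring each array on its median. A difference is between group means of such levels, ± SE, from limma. The files hold no intensities, so the defining markers of the tissues could not be checked for presence, and it is unknown which members lay near background. A difference in RNA and a sequence difference under a probe cannot be told apart, and neither can fewer cells of a type and less RNA per cell. From their shared pattern of empty spots the arrays fell into 3 sets of 46, 24 and 2 arrays, which the labels do not name. Set 3 is brain cas 3 and liver/kidney spretus 2, and all other cas and spretus arrays are in set 2. In liver/kidney dom, mus and ssp are all in set 1. Each group thus lies there on 1 side of the divide between set 1 and the other sets, and spretus can be compared within set 2 with cas alone. In brain set 2 holds mus, cas and ssp arrays beside spretus, and in testis 1 dom, 2 mus and 3 cas arrays. A difference within set 2 is from the mean of those groups, so without dom in brain and without ssp in testis.

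Tests could be made for 106 of the 113 probes in brain, for 106 in liver/kidney and for 107 in testis. The others, among them those of Ccl5, Ccl21c, Il17rc and Il4, had fewer than 2 values in some group. Over all comparisons 29 results passed an adjusted p of 0.05, in 21 genes, and 25 of these were differences between spretus and the musculus groups, in 17 genes. The median difference of the members stayed between -0.04 and 0.04, beside -0.01 to 0.02 for all probes. The calls were thus single genes on either side of a median near 0. In 10 of the 29 results the groups did not overlap. As these were picked by adjusted p, that adds no support. The share of all probes without overlap was not counted.

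The reference sequence ahead of the gene is shown for Cxcl12 and Il18bp, whose testis differences between species passed under every alternative setting, and for Ccl12, which differed between sub-species. Each is the 250 bases before the start of the gene from RefSeq (GRCm38.p6), at chr6:117168285-117168534 on the forward strand for Cxcl12, chr7:102018233-102018482 on the reverse strand for Il18bp and chr11:82101595-82101844 on the forward strand for Ccl12. Capitals mark matches on either strand to TATAAA, the box bound by the basal transcription machinery, to the STAT element TTCNNNGAA, or to the core letters of the interferon-stimulated element or of the NF-kappaB element.
Cxcl12: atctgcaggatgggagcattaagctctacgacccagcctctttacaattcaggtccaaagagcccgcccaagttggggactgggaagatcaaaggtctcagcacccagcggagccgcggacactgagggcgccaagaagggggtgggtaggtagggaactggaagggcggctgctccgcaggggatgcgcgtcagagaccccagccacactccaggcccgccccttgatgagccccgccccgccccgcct
Il18bp: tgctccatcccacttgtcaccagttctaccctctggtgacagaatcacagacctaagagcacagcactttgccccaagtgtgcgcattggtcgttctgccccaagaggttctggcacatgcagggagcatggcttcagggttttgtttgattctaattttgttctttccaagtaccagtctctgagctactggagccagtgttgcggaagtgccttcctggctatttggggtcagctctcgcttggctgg
Ccl12: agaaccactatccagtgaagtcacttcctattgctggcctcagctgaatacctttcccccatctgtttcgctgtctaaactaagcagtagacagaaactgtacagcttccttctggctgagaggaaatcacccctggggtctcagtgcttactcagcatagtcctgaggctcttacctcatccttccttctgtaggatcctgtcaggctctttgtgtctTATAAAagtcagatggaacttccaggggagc
The Cxcl12 window held 64.4% G and C and 14 CG pairs, and the Il18bp window 52.4% and 4. Ccl12 had 48.4%, 1 CG pair and a TATAAA that begins 31 bases before the start, and none of the patterns occurs in the other windows. Over 27025 mouse genes the median window had 52.0% G and C and 6 CG pairs, against 48.0% and 3 for the 81 members with a window. TATAAA occurred in 22.2% of the members' windows and 13.0% of all. The NF-kappaB pattern occurred in 28.4% and 17.3%, and no test was made of these shares. The sequences are those of the laboratory strain, and those of the other mice were not read.

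Spretus against the musculus groups asks how the 2 species differ, and Cxcl12 in testis had the lowest adjusted p of all members. This CXC chemokine of stromal cells is the ligand of Cxcr4 and retains stem cells and leukocytes in their niches. In testis the spretus arrays had levels of 1.03, 1.33 and 1.20, while the other 21 arrays ran from -0.74 over a median of -0.16 to 0.38. All spretus arrays thus lay above all others. The difference was 1.34 ± 0.13, or 2.53-fold (adjusted p = 1.52e-07). The group means were -0.26 ± 0.16 in dom (SD, n = 6), -0.31 ± 0.25 in mus (SD, n = 6), -0.05 ± 0.27 in ssp (SD, n = 6), 0.02 ± 0.17 in cas (SD, n = 3) and 1.19 ± 0.15 in spretus (SD, n = 3). Within array set 2 alone the difference was 1.38 (adjusted p = 0.00226). The receptor Cxcr4 differed by -0.27 ± 0.11 (adjusted p = 0.119) in testis and did not pass.

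In liver/kidney most mice had less Cxcl12 than the pool, and spretus less so. The spretus arrays stood at -0.41, -0.43 and 0.33, and the musculus arrays ran from -1.47 over -0.79 to -0.33, 1 of them inside the spretus range. The difference of 0.64 ± 0.16 passed (adjusted p = 0.0173), and without spretus 3 it was 0.39 (adjusted p = 0.185). In brain the spretus levels of -0.28, -0.16 and -0.23 lay inside the musculus range of -0.84 to 0.38, and the difference was -0.05 ± 0.16 (adjusted p = 0.895).

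Il18bp encodes a secreted protein that binds interleukin 18 and blocks it. In testis its spretus levels were 0.65, 0.48 and 0.63, and the musculus arrays ran from -0.19 over 0.02 to 0.19. The groups did not overlap. The difference was 0.57 ± 0.06, or 1.49-fold (adjusted p = 5.16e-07), and 0.59 (adjusted p = 0.0085) within array set 2. With any single array left out, testis Cxcl12 and Il18bp kept their calls. In liver/kidney the spretus levels of 0.14, 0.43 and 0.56 stood higher than most of the musculus range of -0.19 to 0.25, with 2 arrays inside. That difference was 0.37 ± 0.08 (adjusted p = 0.00806), and 0.34 (adjusted p = 0.0516) without spretus 2 and 0.27 (adjusted p = 0.0752) without spretus 3. In brain spretus 3 alone was high, with levels of 0.08, 0.12 and 0.98 and a difference of 0.34 ± 0.13 (adjusted p = 0.134). Il18 itself differed by 0.13 ± 0.08 (adjusted p = 0.363) in testis.

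Ccl6, a CC chemokine of mouse macrophages, was the 1 member called in all 3 tissues. In brain the spretus levels were 0.58, 0.84 and 0.60, and the musculus arrays ran from -0.83 over 0.15 to 0.62. In liver/kidney they were 0.03, 1.27 and 0.19, beside -0.49, -0.20 and 0.30 as lowest, median and highest of the musculus arrays. In testis they were 0.61, 0.97 and 0.56, beside -0.40, 0.11 and 0.75. Spretus was high throughout, with 1 musculus array inside its range in each tissue. The differences were 0.61 ± 0.13 (adjusted p = 0.00842) in brain, 0.68 ± 0.16 (adjusted p = 0.00929) in liver/kidney and 0.60 ± 0.14 (adjusted p = 0.00694) in testis. Spretus 2 was the highest spretus array in each tissue, and without it the differences were 0.53 (adjusted p = 0.0839), 0.29 (adjusted p = 0.184) and 0.48 (adjusted p = 0.111). Within array set 2 the differences were 0.48 (adjusted p = 0.102) in brain, 0.32 (adjusted p = 0.643) in liver/kidney and 0.75 (adjusted p = 0.0305) in testis. The SD over all probes was 0.42 on spretus 2 in liver/kidney, beside 0.27 and 0.28 on spretus 1 and 3. In testis it was 0.37, beside 0.27 and 0.27, and in brain 0.21, beside 0.24 and 0.24. The part of this array-wide spread in the members' values was not tested. The probe next to that of Ccl6 on the array belongs to Ackr2, a decoy receptor of CC chemokines, which differed in brain by 0.60 ± 0.14 (adjusted p = 0.0131). Of all probes next to those of members called in spretus, 3 of 31 (9.68%) were called in brain. In liver/kidney 5 of 39 (12.8%) were called and in testis 1 of 28 (3.57%). Over all probes the shares were 3.95%, 7.49% and 9.42%. The part of the place on the array in these calls was not tested.

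**Figure D1:**
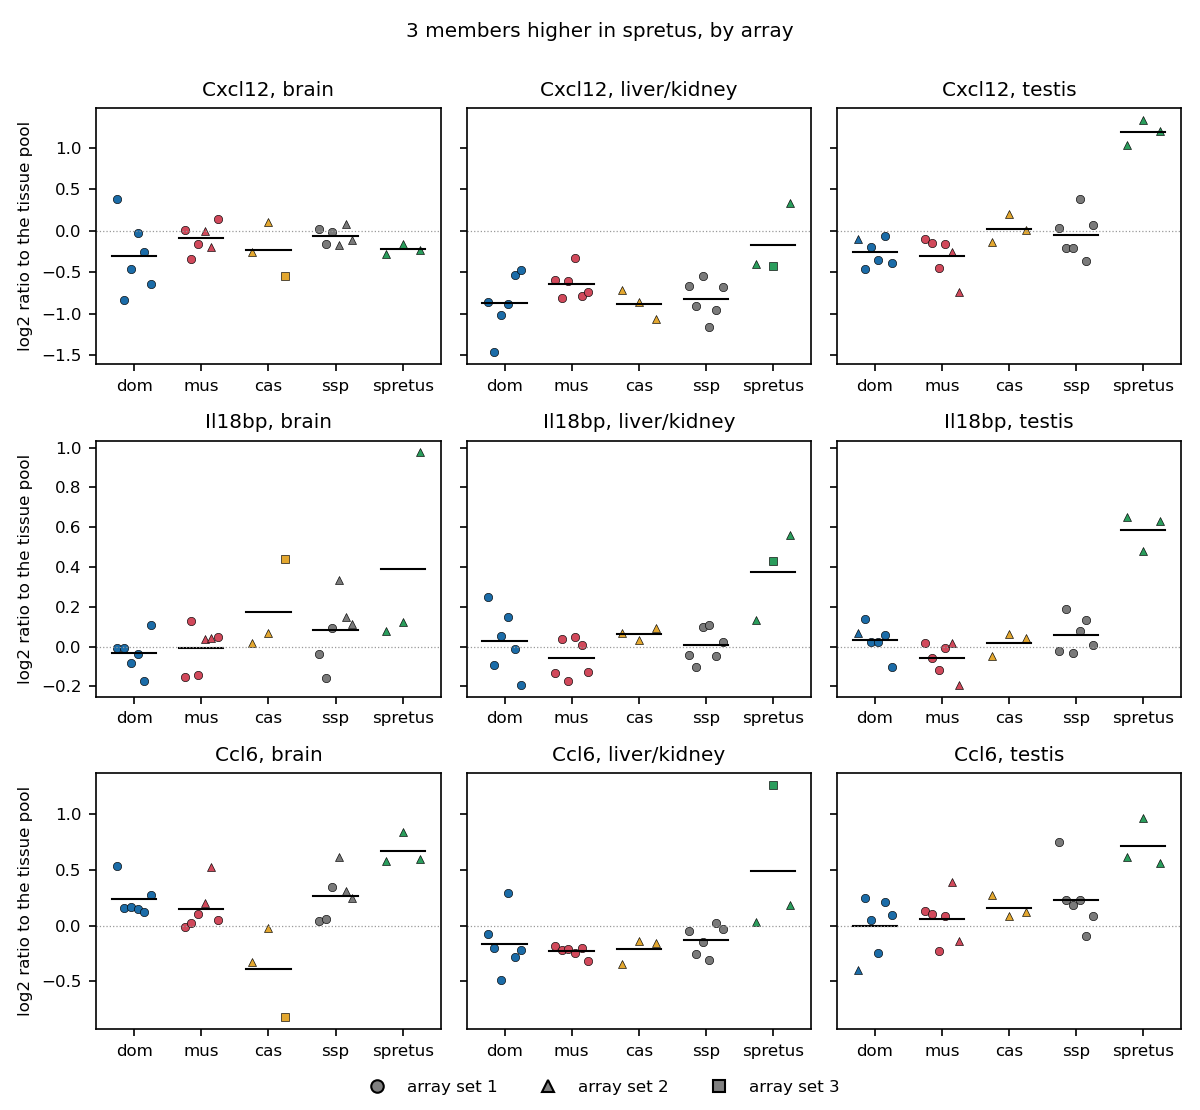
Log2 ratio to the tissue pool of Cxcl12, Il18bp and Ccl6 in brain, liver/kidney and testis, 1 point per array by group, with a bar at each group's mean. In testis the spretus arrays sit between 1.03 and 1.33 for Cxcl12, above all musculus arrays.

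In testis 7 of 107 members (6.54%) were called, 4 higher and 3 lower in spretus, beside 9.42% of all probes, so calls were not more frequent among the members. Beside Cxcl12, Il18bp and Ccl6 these were interleukins and a receptor chain. Il24, an interleukin of the interleukin 10 family, stood at -0.83, -0.80 and -0.34 in spretus, and the musculus arrays ran from -0.75 over -0.06 to 0.17. It was low in spretus with 4 musculus arrays in the same range. Its difference was -0.50 ± 0.14 (adjusted p = 0.0205), and -0.42 (adjusted p = 0.11) without spretus 1 and -0.43 (adjusted p = 0.162) without spretus 2. The remaining 3 calls were lost without spretus 2, the testis array with the largest SD over all probes (0.37). Il12a, the p35 subunit of interleukin 12, stood at -0.28, -0.98 and -0.17, with a difference of -0.38 ± 0.11 (adjusted p = 0.0335) that was -0.13 (adjusted p = 0.631) without that array. Il10ra, the ligand-binding chain of the interleukin 10 receptor, stood at 0.18, 0.71 and 0.01, with a difference of 0.34 ± 0.10 (adjusted p = 0.0401) that was 0.14 (adjusted p = 0.615) without it. Il34, a ligand of the Csf1 receptor, stood at -0.03, -0.35 and -0.10, with a difference of -0.19 ± 0.06 (adjusted p = 0.0379) that was -0.10 (adjusted p = 0.488) without it. Of the musculus arrays, 6, 10 and 2 lay inside the spretus range of these 3 genes. Il10ra also lost its call without cas 3, mus 2, mus 3 or mus 5, with a highest adjusted p of 0.0599, and Il34 without cas 2, cas 3 or spretus 3, with one of 0.0548. Within array set 2 none of Il24, Il12a, Il10ra and Il34 passed (adjusted p from 0.142 to 0.406). Without spretus 2 the testis count was 2 (1.87%), Cxcl12 and Il18bp, beside 5.04% of all probes.

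In brain 8 of 106 members (7.55%) were called, 2 higher and 6 lower in spretus, beside 3.95% of all probes. The other gene higher with Ccl6 was Ccr10, the receptor of Ccl27 and Ccl28. It stood at 0.47, 0.30 and 0.40, and the musculus arrays ran from -0.18 over 0.04 to 0.26, with no overlap. The difference was 0.34 ± 0.07 (adjusted p = 0.00742), and 0.31 (adjusted p = 0.076) without spretus 1. Cxcr2, the receptor of CXC chemokines that attract neutrophils, was lower at -0.28, -0.31 and -0.40, below all musculus arrays (-0.19 to 0.70, median 0.08). Its difference was -0.43 ± 0.12 (adjusted p = 0.0386), and -0.40 (adjusted p = 0.181) without spretus 3. Il2rb, a chain shared by the receptors of interleukins 2 and 15, was lower at -0.42, -0.27 and -0.26, below a lowest musculus value of -0.25. Its difference was -0.40 ± 0.08 (adjusted p = 0.00705), and -0.35 (adjusted p = 0.0777) without spretus 1. These 3 receptor genes thus did not overlap between the species on these arrays, by small margins. They were picked by their adjusted p, and how many of all probes separate in this way was not counted.

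The remaining brain calls were ligands that were lower in spretus. Il20, of the same family as Il24, stood at -0.28, -0.29 and -0.36, just under the musculus range of -0.27 to 0.52. Its difference was -0.38 ± 0.10 (adjusted p = 0.0357). Il24 stood at -0.34, -0.36 and -0.28 beside -0.35 to 0.36, with a difference of -0.40 ± 0.11 (adjusted p = 0.0481). Both genes were low on all 3 spretus arrays. Il12a stood at -0.41, -0.59 and -0.61 beside -0.74 to 0.08, with a difference of -0.34 ± 0.09 (adjusted p = 0.0414). Ccl7, a chemokine for monocytes, stood at -0.20, -0.24 and -0.30 beside -0.27 to 0.36, with a difference of -0.32 ± 0.09 (adjusted p = 0.0457). Over the 24 fits with a single array omitted, Ccl7 lost its call in 17, Il24 in 16, Il12a in 10, Cxcr2 in 5 and Il20 in 3, each with its sign kept. The brain count itself was 1, 2 and 3 without spretus 1, 2 and 3, 4 without dom 5, and 5 without dom 3, dom 6, mus 2, mus 4, ssp 1 or ssp 3. Without spretus 1, 2 and 3 these counts were 0.952%, 1.89% and 2.86% of the members, beside 1.76%, 2.23% and 1.84% of all probes. The fits without a spretus array were among the lost ones for each of these genes, with values without spretus 3 of -0.29 (adjusted p = 0.205), -0.42 (adjusted p = 0.134), -0.30 (adjusted p = 0.208) and -0.35 (adjusted p = 0.167) for Ccl7, Il24, Il12a and Il20. Within array set 2 none of the 8 brain differences passed (adjusted p from 0.0954 to 0.301), with sizes of 0.48 for Ccl6 and 0.34 for Ccr10.

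**Figure D2:**
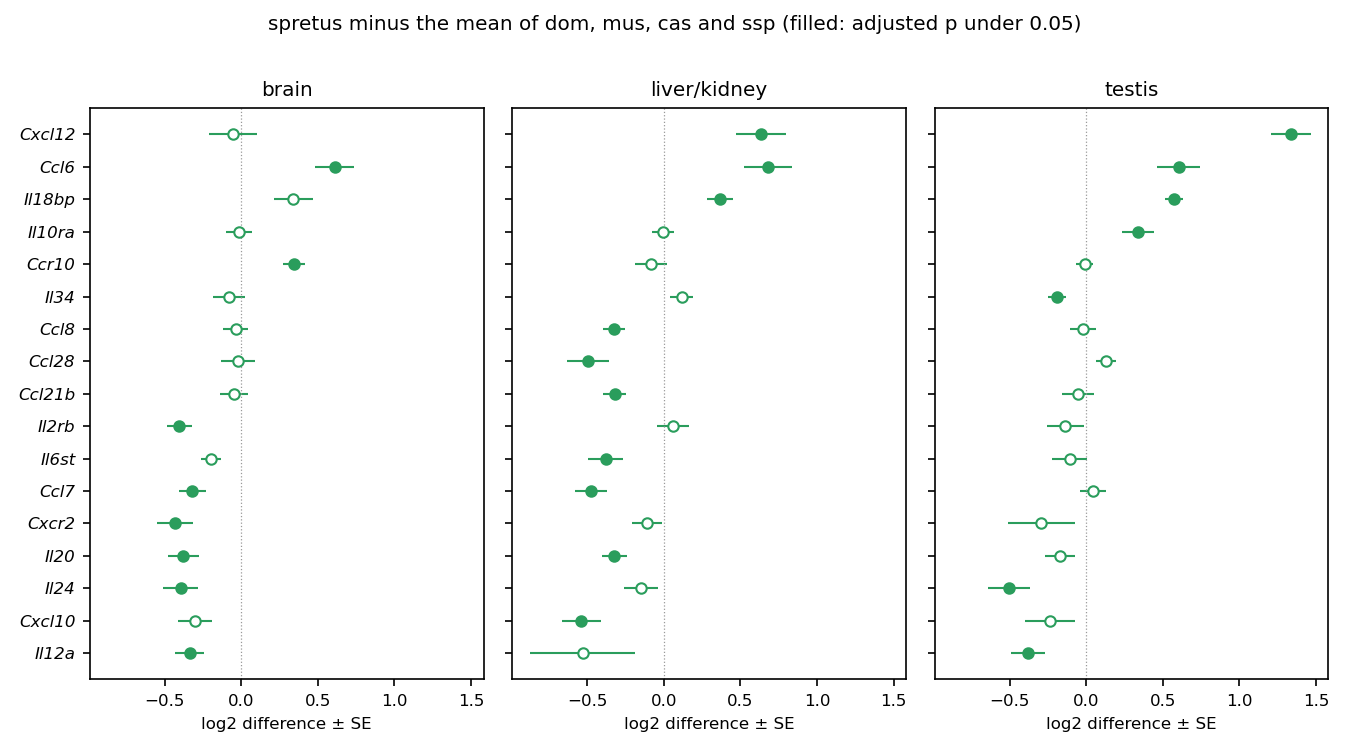
Difference between spretus and the mean of the musculus groups (log2, ± SE) in brain, liver/kidney and testis for the members called in any tissue, with filled points where the adjusted p was under 0.05. Ccl6 lies between 0.60 and 0.68 in the 3 tissues, whereas Cxcl12 runs from -0.05 in brain to 1.34 in testis.

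In liver/kidney 10 of 106 members (9.43%) were called, 3 higher and 7 lower in spretus, beside 7.49% of all probes. Ccl8, a CC chemokine for monocytes, was the member among them that passed whichever single array was omitted. It stood at -0.46, -0.30 and -0.36, and the musculus arrays ran from -0.34 over -0.04 to 0.11. Its difference was -0.32 ± 0.07 (adjusted p = 0.00759). Ccl7 stood at 0.01, -0.84 and -0.30 beside -0.13 to 0.34, with a difference of -0.48 ± 0.11 (adjusted p = 0.00725) that was -0.24 (adjusted p = 0.143) without spretus 2. Ccl28, an epithelial chemokine and ligand of Ccr10, stood at -0.88, -0.44 and -0.31 beside -0.57 to 0.34. Its difference was -0.49 ± 0.14 (adjusted p = 0.0265), and -0.33 (adjusted p = 0.196) without spretus 1 and -0.54 (adjusted p = 0.0575) without spretus 2. Ccl21b, a ligand of Ccr7, stood at -0.10, -0.23 and -0.27 beside -0.24 to 0.37, with a difference of -0.32 ± 0.08 (adjusted p = 0.0105). Without spretus 3 that was -0.28 (adjusted p = 0.0536), and without spretus 2 -0.31 (adjusted p = 0.0525). It is 1 of several near-identical Ccl21 copies, so its probe may not tell them apart. Ccl21a differed by -0.55 ± 0.30 (adjusted p = 0.301) and did not pass.

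Cxcl10, an interferon-induced ligand of Cxcr3, split the spretus mice, with levels of 0.30, -0.55 and -0.65 beside a musculus range of -0.14 to 0.61. Spretus 1 lay among the musculus arrays and the others below all of them. The difference was -0.54 ± 0.13 (adjusted p = 0.0109), -0.41 (adjusted p = 0.114) without spretus 2 and -0.36 (adjusted p = 0.115) without spretus 3. Il20 stood at 0.04, -0.15 and -0.44 beside -0.12 to 0.37, with a difference of -0.32 ± 0.08 (adjusted p = 0.0154) that was -0.19 (adjusted p = 0.171) without spretus 3. Il6st, the signalling chain gp130 of the interleukin 6 family, was measured by 2 probes. On the called one it stood at 0.00, -0.90 and -0.14, low on spretus 2 alone, with a difference of -0.38 ± 0.11 (adjusted p = 0.0408) that was -0.10 (adjusted p = 0.64) without it. The call was also lost without cas 1, cas 2, dom 6, dom 10, mus 4 or mus 7. On the other probe the difference was -0.20 ± 0.13 (adjusted p = 0.401). Without spretus 2, 6 members (5.77%) were called in liver/kidney, beside 4.65% of all probes. Of these Ccl8, Cxcl12 and Il20 were among the 10, and Ccl27a, Il10rb and Il17ra were not. With the array set as a random block 0 of the 10 calls remained, and within set 2, which there holds 2 spretus and 3 cas arrays, none passed (adjusted p from 0.502 to 0.865).

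**Figure D3:**
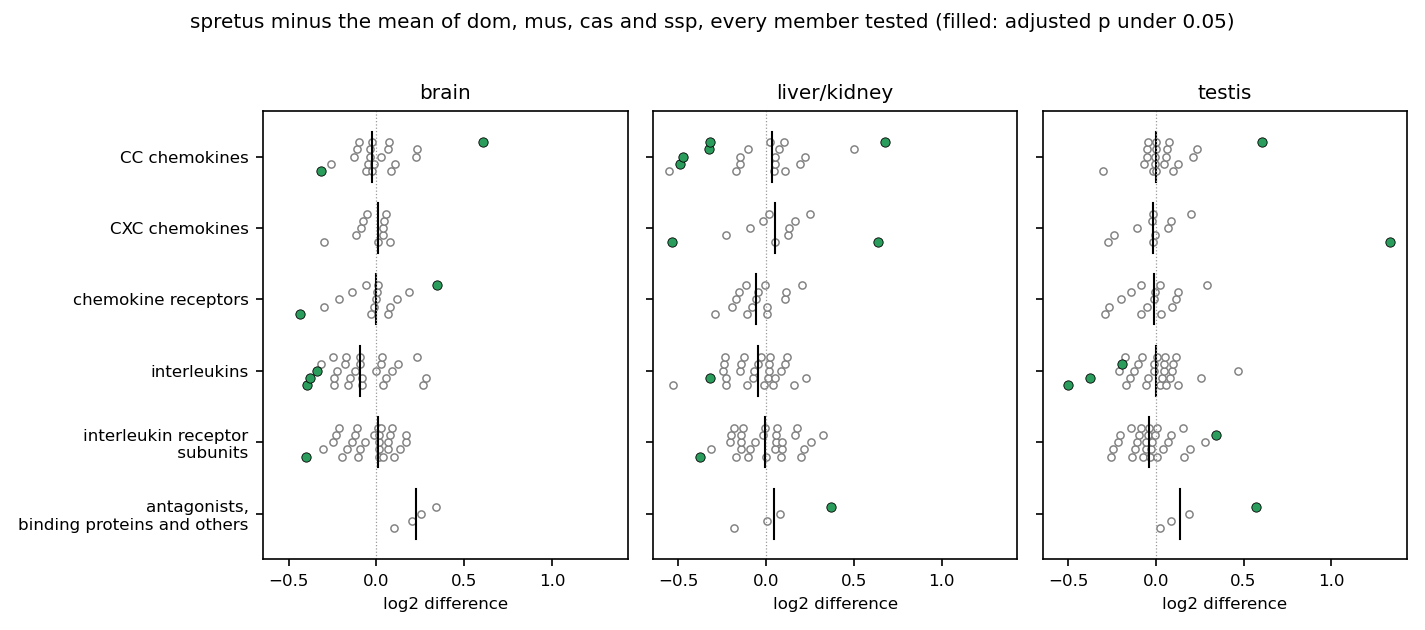
Difference between spretus and the mean of the musculus groups (log2) for each tested member, by role and tissue, with filled points where the adjusted p was under 0.05. Called members lie on both sides of 0 among CC chemokines in brain and liver/kidney, and interleukins were called only below 0.

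By role, CC chemokines gave 1 higher and 1 lower call of 20 tested in brain, 1 higher and 4 lower in liver/kidney, and 1 higher in testis. Of 11 CXC chemokines 0 were called in brain, 1 higher and 1 lower in liver/kidney, and 1 higher in testis. Chemokine receptors were called in brain, 1 in each direction of 15, and 0 in the other tissues. Interleukins gave lower calls in each tissue, 3 of 27 in brain, 1 of 27 in liver/kidney and 3 of 28 in testis, and 0 higher calls. Of their 29 tested receptor subunits 1 was lower in brain, 1 lower in liver/kidney and 1 higher in testis. The median difference of a role lay between -0.10, for brain interleukins, and 0.23, for the 4 antagonists, binding proteins and others in brain. The roles were not tested against each other.

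Mus against dom asks how 2 sub-species of the house mouse differ. In liver/kidney 4 of 106 members (3.77%) were called, all higher in mus, beside 0.591% of all probes. The arrays of both groups belong to array set 1. Ccr6, the receptor of Ccl20 on lymphocytes and dendritic cells, ran from 0.26 over 0.54 to 1.01 in mus and from -0.55 over -0.03 to 0.13 in dom. The groups did not overlap. The difference was 0.69 ± 0.11, or 1.61-fold (adjusted p = 0.00258). Ssp (-0.22 to 0.29), cas (-0.07 to 0.13) and spretus (-0.29 to -0.02) all overlapped dom.

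Ccl12, a mouse chemokine for monocytes that acts through Ccr2, ran from 0.54 over 0.63 to 0.90 in mus and from -0.57 over -0.02 to 0.07 in dom. Here too the groups did not overlap. The difference was 0.79 ± 0.13, or 1.72-fold (adjusted p = 0.00305). Spretus arrays stood at 0.56, 0.01 and 0.74 and cas arrays at 0.46, -0.09 and 0.31, so both held high and low mice. Ccr2 differed by 0.13 ± 0.11 (adjusted p = 0.98). Ccl25, a chemokine of thymus and small intestine and the ligand of Ccr9, ran from -0.13 over 0.38 to 0.59 in mus and from -0.57 over -0.36 to -0.15 in dom. Its lowest mus array lay just above its highest dom array. The difference was 0.68 ± 0.14 (adjusted p = 0.023), and 0.63 (adjusted p = 0.0683) without mus 2. Il17ra, the receptor chain of interleukin 17A, ran from 0.11 over 0.43 to 0.57 in mus and from -0.24 over -0.08 to 0.05 in dom. Its difference was 0.46 ± 0.09 (adjusted p = 0.0176), and 0.42 (adjusted p = 0.0711) without mus 4. Ccr6 and Ccl12 kept their calls whichever of the 12 arrays was omitted. Il17ra lost its call in 4 such fits (without dom 1, dom 13, mus 4 or mus 7) and Ccl25 in 6 (without dom 1, dom 5, dom 13, mus 2, mus 4 or mus 5), with smallest values as given, so 2 of the 4 remained without dom 1, dom 13 or mus 4. Of the 16 probes next to these 4 on the array 0 were called, beside 0.591% of all probes. At that share 16 probes are too few to tell neighbours from other probes.

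**Figure D4:**
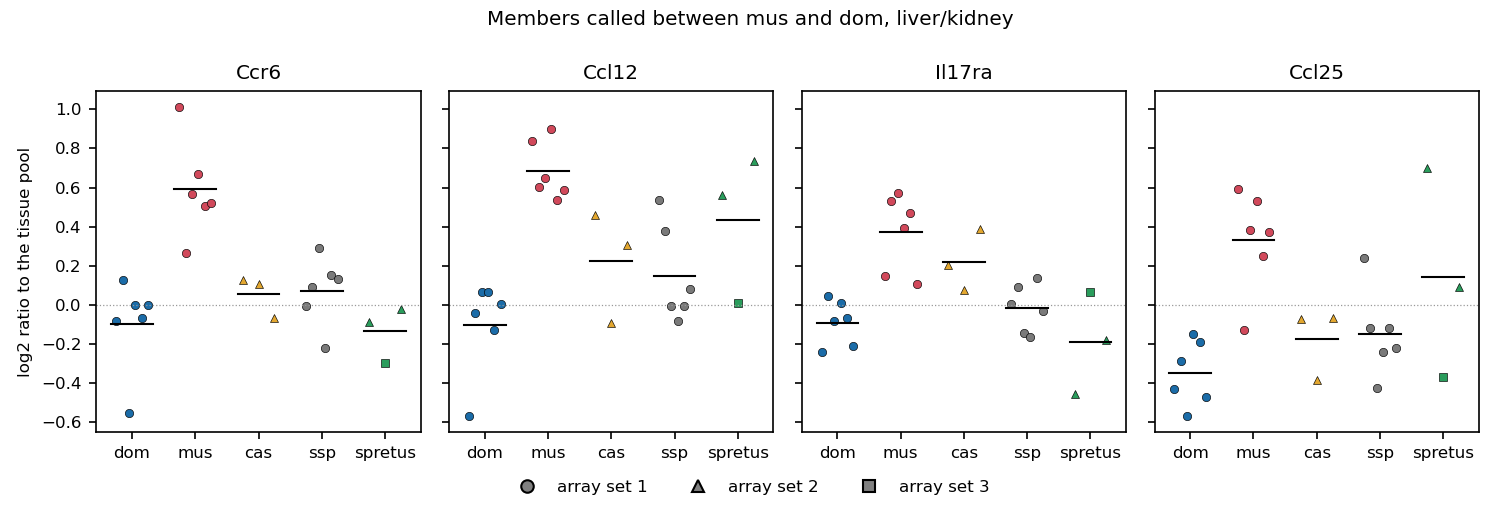
Log2 ratio to the liver/kidney pool of Ccr6, Ccl12, Il17ra and Ccl25, 1 point per array by group, with a bar at each group's mean. All 6 mus arrays lie above all 6 dom arrays for each gene, and the genes shown are those called.

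In brain 0 of 106 members were called between mus and dom, beside 0.223% of all probes, and in testis 0 of 107, beside 0%. At an unadjusted p under 0.05 there were 18 members (17.0%) in brain, beside 9.33% of all probes, and 8 (7.48%) in testis, beside 6.59%. The genes called in liver/kidney had positive brain differences that did not pass: Ccr6 0.26 ± 0.10 (adjusted p = 0.376), Il17ra 0.28 ± 0.13 (adjusted p = 0.484), Ccl12 0.26 ± 0.17 (adjusted p = 0.729) and Ccl25 0.23 ± 0.14 (adjusted p = 0.699). In testis their differences were 0.27 ± 0.12, 0.19 ± 0.09, -0.08 ± 0.10 and -0.27 ± 0.22, on both sides of 0. The largest other brain differences were Il4i1, an amino acid oxidase induced by interleukin 4, at 0.51 ± 0.23, the skin chemokine Ccl27a at -0.45 ± 0.15 and the interleukin 27 receptor Il27ra at -0.42 ± 0.13. Il4i1 stood at -1.12 on dom 5 and -2.03 on dom 13, while the other dom arrays ran from -0.26 to -0.02. Il27ra stood at 1.07 on dom 10, beside 0.02 to 0.23. In testis the largest differences were Il1rapl1 at 0.34 ± 0.17, Il31 at 0.32 ± 0.08, Il6ra at -0.33 ± 0.12 and 1 of the Il10rb probes at -0.32 ± 0.17, beside 0.04 ± 0.10 on the other. On the first Il10rb probe dom 1 stood at 1.28, while the other dom arrays ran from -0.21 to 0.19. In liver/kidney the largest negative ones were Il12a at -0.68 ± 0.32 and 1 of the Il15 probes at -0.29 ± 0.18, while the other Il15 probe differed by 0.01 ± 0.05. On the first Il15 probe dom 5 stood at 1.30, while the other dom arrays ran from -0.59 to 0.09. None of these passed.

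Cas was set against the mean of dom and mus, and 0 members were called. Over all probes 0.0097% were called in brain, and 1.11% and 0.0193% in liver/kidney and testis. At an unadjusted p under 0.05 there were 14 members (13.2%) in brain, beside 12% of all probes, 15 (14.2%) in liver/kidney, beside 14.8%, and 8 (7.48%) in testis, beside 6.25%. The largest brain difference was that of Ccl6, -0.59 ± 0.14 (adjusted p = 0.103), with cas levels of -0.33, -0.02 and -0.83, the lowest of which is the array of set 3. With cas 2 left out, cas keeps 1 array of set 2 and that array of set 3, and 6 brain members (5.66%) passed, beside 4.68% of all probes. Il12rb1, a chain of the interleukin 12 receptor, differed in brain by -0.47 ± 0.13, Ccl28 by 0.37 ± 0.11 and Il4i1 by 0.30 ± 0.25. The cas levels of Ccl28 were -0.05, 0.90 and 0.31, and the duplicate spots of its probe had an r of -0.06 over the brain arrays. The cas levels of Il4i1 were -0.01, -0.08 and -0.05, beside the 2 low dom arrays named above. In liver/kidney the largest differences were Il12a at 0.39 ± 0.36, Il27ra at 0.38 ± 0.14, Il1f5, an antagonist of the interleukin 36 receptor, at -0.33 ± 0.15, and Cxcl15, a lung chemokine, at -0.23 ± 0.13. Il1f5 stood at -0.9571 on cas 3, beside -0.0152 and -0.0025 on the other cas arrays. Cxcl15 stood at 0.75 on mus 8, while the other mus arrays ran from -0.21 to 0.11. In testis the largest differences were Ccl17, a ligand of Ccr4, at 0.36 ± 0.16, Cxcl12 at 0.31 ± 0.13, Ccl21a at -0.41 ± 0.18 and Ccr1, a receptor of inflammatory CC chemokines, at -0.32 ± 0.11. All of these differences missed the threshold.

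Ssp was set against the mean of dom, mus and cas, again with 0 members called. Over all probes 0.097% were called in brain, and 0.0436% and 0% in liver/kidney and testis. At an unadjusted p under 0.05 there were 15 members (14.2%) in brain, beside 15.7% of all probes, 12 (11.3%) in liver/kidney, beside 10.6%, and 4 (3.74%) in testis, beside 4.86%. Il1b, the inflammatory cytokine interleukin 1 beta, had brain levels in ssp of 0.32, 0.27, 0.29, 0.62, 0.12 and 0.35, all above 0, and a difference of 0.33 ± 0.08 (adjusted p = 0.0841). With cas 2 left out, 5 brain members (4.72%) passed in this comparison, beside 1.47% of all probes, Il1b among them with Ccl9, Ccl21a, Il2ra and Il21r. Other brain values were Il2ra, the alpha chain of the interleukin 2 receptor, at 0.36 ± 0.11 on 1 probe and 0.02 ± 0.08 on another, Ccl9, a macrophage chemokine, at -0.35 ± 0.10 and Il5ra, the receptor chain of interleukin 5, at -0.60 ± 0.22. For Il5ra ssp 6 stood at -2.39, far below the other ssp arrays. In liver/kidney Ccl28 differed by 0.33 ± 0.11, Ccr7 by 0.32 ± 0.12, Ccl27a by -0.19 ± 0.15 and Il17ra by -0.18 ± 0.08. In testis the values were Il1rap, a shared chain of interleukin 1 receptors, at 0.21 ± 0.12, Ccl6 at 0.16 ± 0.11, Il33 at -0.21 ± 0.10 and Il1rapl1 at -0.20 ± 0.14.

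Whether a difference itself varied between tissues was tested with all 72 arrays in 1 limma model and the animal as a random block. For mus minus dom, Ccl12 was the 1 member called: its difference was larger in liver/kidney than in testis, by 0.87 ± 0.20 (adjusted p = 0.0394), beside 0.17% of all probes called. For brain against liver/kidney 0 members were called, beside 0.0389%, and for brain against testis 0, beside 0%. At an unadjusted p under 0.05 those counts were 10 (9.43%), beside 7.44%, and 7 (6.6%), beside 5.14%. For spretus against the musculus groups, the brain difference of Ccr10 exceeded that in liver/kidney by 0.43 ± 0.11 (adjusted p = 0.0263), the 1 call beside 1.9% of all probes. Brain minus testis gave 3 calls, beside 2.96%: Cxcl12 at -1.39 ± 0.22 (adjusted p = 6.44e-06), Il31, a T-cell cytokine of itch, at -0.50 ± 0.12 (adjusted p = 0.00866) and Ccr6 at -0.59 ± 0.17 (adjusted p = 0.0426). Liver/kidney minus testis gave 4, beside 5.98%: Cxcl12 at -0.70 ± 0.22 (adjusted p = 0.0365), Ccr6 at -0.58 ± 0.17 (adjusted p = 0.0281), Ccl7 at -0.52 ± 0.13 (adjusted p = 0.00864) and Ccl28 at -0.62 ± 0.15 (adjusted p = 0.00586). The spretus differences of Ccr6 in brain, liver/kidney and testis were -0.30 ± 0.11, -0.29 ± 0.12 and 0.29 ± 0.13, and those of Il31 -0.24 ± 0.10, 0.02 ± 0.07 and 0.26 ± 0.09. Neither gene passed within a tissue, with the adjusted p between 0.0664 and 0.925. These tests between tissues were not repeated with an array left out or with the array sets. The liver/kidney difference of Ccl7 was -0.48 with all arrays and -0.24 without spretus 2. In testis the duplicate spots of the Ccl28 probe had an r of -0.0002 over the arrays.

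Because each tissue's arrays share 1 pool, the levels also place these mice against C57BL6, as a description with no test. The genes of this paragraph were chosen after their values were seen. Il33, an alarmin kept in the nucleus of endothelial and epithelial cells, was below the pool on 70 of 72 arrays. In brain that held on 23 of 24 arrays, with a lowest, median and highest level of -0.84, -0.38 and 0.37. In liver/kidney it held on all 24 (-1.21, -0.76 and -0.21) and in testis on 23 (-0.83, -0.27 and 0.12). The exceptions were dom 1 in brain and dom 6 in testis. In liver/kidney the group means were -0.81 ± 0.28 in dom (SD, n = 6), -0.65 ± 0.19 in mus (SD, n = 6), -0.75 ± 0.20 in ssp (SD, n = 6), -0.91 ± 0.12 in cas (SD, n = 3) and -0.82 ± 0.53 in spretus (SD, n = 3). All groups thus overlapped there.

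Other members also kept to 1 side of the liver/kidney pool. Il12a was below it on all 24 arrays (median -0.61, lowest -2.49), while Cxcl9, an interferon-induced ligand of Cxcr3, Cxcl12 and Ccl27a were below it on 23 (medians -0.80, -0.73 and -0.70). For these last 3 genes the exception was the same array, spretus 3. Ccr8, a receptor of T cells, was above the pool on all 24 (0.11 to 0.86, median 0.31) and Ccl22, a ligand of Ccr4, on 23 (median 0.22). In testis Ccr7, the receptor that brings leukocytes to lymph nodes, was above the pool on 23 of 24, by little (median 0.08). Members on 1 side on every array were 3 of 106 (2.83%) in liver/kidney, beside 0.78% of all probes, and 0 in brain and testis, beside 0.03% and 0.35%.

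**Figure D5:**
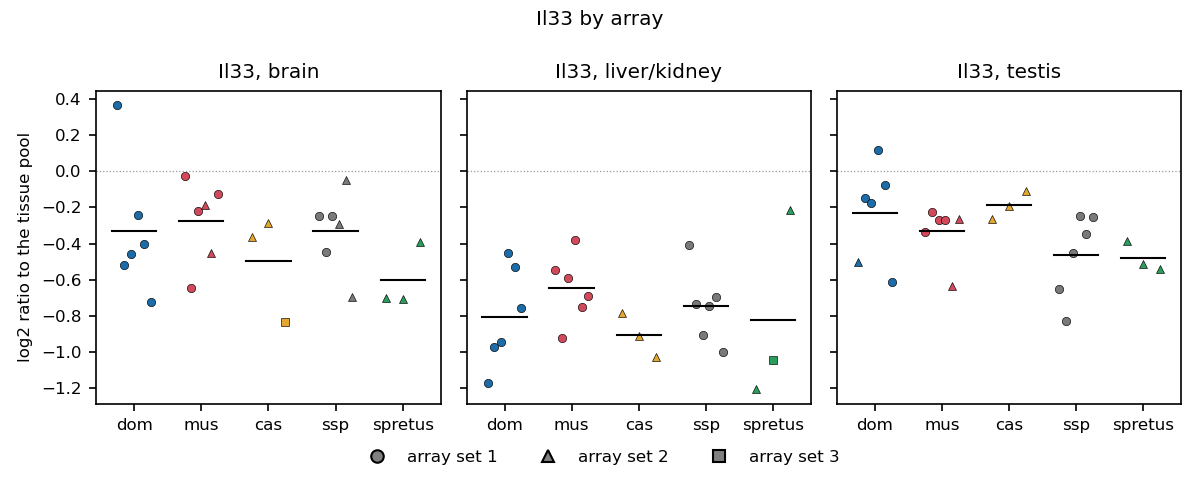
Log2 ratio of Il33 to the tissue pool in brain, liver/kidney and testis, 1 point per array by group, with a bar at each group's mean. 70 of the 72 arrays lie below 0, and both arrays above 0 are dom.

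The spread between the arrays of a group, 1 per animal, was about that of other genes, and it mixes animals with measurement. The median within-group SD of the members in brain, liver/kidney and testis was 0.168, 0.16 and 0.152, beside 0.173, 0.163 and 0.153 over all probes. In brain the most variable members were Il5ra (0.508), Il4i1 (0.432), which stood at -2.03 on dom 13, and Il18rap, a chain of the interleukin 18 receptor (0.412). Il18rap stood at -1.70 on mus 8, the array whose title and channel label differ, while the other mus arrays ran from -0.11 to 0.37. In liver/kidney they were Il12a (0.606), Ccl21a (0.534) and 1 of the Il15 probes (0.343), while the other Il15 probe had the lowest SD of the members there (0.0708). In testis they were Ccl25 (0.414), at 1.83 on dom 1, Cxcr2 (0.382) and Cxcl11, a ligand of Cxcr3 (0.355). Among the steadiest were Il1a (0.0947) in brain, the eosinophil chemokine Ccl11 (0.0784) in liver/kidney and Il5 (0.0568) and Il6 (0.0795) in testis. A low SD does not tell a steady level from a probe with no signal. The duplicate spots of a called probe agreed over the arrays of a tissue with an r from 0.13, for Il10ra in testis, to 0.97, for Cxcl12 in testis, and brain Il24 and Il12a and liver/kidney Il18bp were also low at 0.32, 0.30 and 0.30.

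Genes around the family were read from lists chosen by function. Between spretus and the musculus groups 3.95%, 7.49% and 9.42% of all probes were called in brain, liver/kidney and testis. The lists, whose calls are few, were not tested against these shares. Of 14 genes of the wider chemokine system, 2 were higher in spretus in brain, Ackr2 and the atypical chemokine receptor Ccrl2 (0.48 ± 0.12), and in testis 1 was higher, Cmtm3 (0.88 ± 0.15), and 1 lower, Xcr1, the receptor of Xcl1 (-0.42 ± 0.09). In liver/kidney 0 were called. Of 22 probes of other cytokines in brain 1 was higher, Mif, a cytokine of macrophages (0.48 ± 0.10), and of 22 in liver/kidney 1, lymphotoxin alpha or Lta (0.46 ± 0.12). Of 23 probes of other cytokine receptors in testis 3 were higher, Epor (0.70 ± 0.16), Lifr (0.41 ± 0.07) and Crlf2 (0.30 ± 0.08), and of 24 in liver/kidney 1 was lower, the growth hormone receptor Ghr (-1.29 ± 0.25). Of 27 probes of JAK-STAT signalling 0 were called in brain and testis, and in liver/kidney Pias3 was higher (0.44 ± 0.09) and Pias4 lower (-0.69 ± 0.18). Of 17 probes of interleukin 1 and Toll signalling, Relb was higher (0.59 ± 0.14) and Rela lower (-0.56 ± 0.17) in liver/kidney, both subunits of NF-kappaB. Calls in the other comparisons were Lta (0.63 ± 0.12) and Tgfb2 (0.48 ± 0.11), higher in cas in liver/kidney, beside 1.11% of all probes. Sigirr was higher in ssp there (0.33 ± 0.06), beside 0.0436%, and Tnfrsf13c higher in mus than in dom in brain (0.39 ± 0.08), beside 0.223%. The cas arrays of liver/kidney are in set 2, as are 2 of the spretus arrays.

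Cell type markers also differed between spretus and the musculus groups, and their part in the members' differences was not tested. The largest list medians were those of germ cells in testis, with 3 of 7 genes lower and 1 above 0 (median -0.29), and of hepatocytes in liver/kidney, with 5 of 11 lower and 1 above 0 (median -0.39). The testis calls were Ldhc (-1.03 ± 0.18), Prm1 (-0.55 ± 0.17) and Odf1 (-0.35 ± 0.10), and those of liver/kidney included Ttr (-1.22 ± 0.24) and Alb (-0.63 ± 0.16). Of 14 macrophage genes 2 were higher in testis, C1qa (0.31 ± 0.08) and Mrc1 (0.40 ± 0.08), with a list median of 0.07, and 0 were called in brain and in liver/kidney.

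In other lists single genes were called. In testis they included Tek (0.54 ± 0.09) of 9 endothelial probes (median -0.02, 3 above 0) and Sox9 (0.30 ± 0.07) of 6 Sertoli and Leydig cell genes (median -0.0039, 3 above 0). In liver/kidney Umod (0.72 ± 0.12) was higher among 8 kidney tubule probes (median -0.01, 4 above 0). Some of these genes were also called outside the tissue they mark. Umod was higher in spretus testis (0.24 ± 0.07), and in spretus liver/kidney Sox9 was higher (0.54 ± 0.10) and the germ cell gene Sycp3 lower (-1.58 ± 0.35). Umod was higher in cas liver/kidney too (0.56 ± 0.13), whose arrays are in set 2. Of immune cell markers, Ighm was higher in testis on 2 of 11 B and plasma cell probes (0.90 and 0.26) and in brain on 1 (0.53), and Pax5 was lower in liver/kidney (-0.29 ± 0.08). Zap70, of 9 T and NK cell genes, was higher in brain (0.41 ± 0.12) and lower in liver/kidney (-0.23 ± 0.06). Of 10 neutrophil and mast cell genes, Mcpt4 was higher (0.57 ± 0.14) and Cpa3 (-0.28 ± 0.08) and Camp (-0.35 ± 0.11) lower in liver/kidney, and Elane was higher in testis (0.32 ± 0.09). As the values are ratios, no summed level of a list can be given.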

How the data were processed

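RNA of 72 mouse samples was measured on 2-colour arrays against a pool per tissue. The authors deposited 1 log ratio per spot, taken here as log2 from values between -5.714 and 5.772. How the scans were corrected and normalized is not stated in what was available here, so log base, direction and prior centring stay unknown, and array medians were -0.0449 to 0.0553. Between 42825 and 44832 of 46128 spots per array had a value. The number of arrays limits the precision. Neighbouring spots hold duplicates (16326 of 16326 annotated pairs had equal identifiers) and were averaged to 22089 probes, 15801 with 1 symbol, 294 with several and 5994 with none. Their correlation within an array had a median of 0.5594. Symbols come from the platform annotation, and all 113 member probes matched RefSeq by Entrez identifier.

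Each array was centred on its median. limma 3.58.1 in R 4.3.3 fitted 1 coefficient per group over the 24 arrays of a tissue, on probes with at least 2 values in every group. The p-values are two-sided and Benjamini-Hochberg adjusted over all probes tested, with a threshold of 0.05. They rest on the spread between arrays of a group, 1 array per mouse. That spread mixes mice with measurement and, in some groups, with array sets. The fit was also run on simulated arrays with independent normal noise and spretus changes of 1 log2 unit. They held no array sets and no outlying arrays, so that run does not cover smaller differences or effects of a set. The members and the lists were chosen with earlier results of these data known. The genes named are called members, the 2 largest differences per direction, contrast and tissue, and members called between tissues. Other probes of these genes were added, with the 3 highest within-group SDs per tissue and some of the lowest. Named beyond this rule were partner genes (Cxcr4, Il18, Ccr2), some untested genes, genes called only with an array left out, and the genes that kept to 1 side of the pool. Alternatives covered normalization, filters, single spots, array weights, blocks, array sets and left-out arrays.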

Additional observations from a re-analysis of the deposited data

Results flagged for a closer look

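In 87 groups of 6 arrays tested for an array far from the rest, 7 had one, where chance gives about 1 in 20 groups. In brain Il12a stood at -0.229 on dom 1, while the other dom arrays ran from -0.0368 to 0.0766. Ccl6 stood at 0.5351 on the same array, beside 0.1258 to 0.2786. Il24 stood at -0.1643 on dom 10, beside 0.0085 to 0.0809. In liver/kidney Ccr6 stood at -0.5522 on dom 5, beside -0.0835 to 0.1278, and Ccl12 at -0.5667 on dom 1, beside -0.1297 to 0.0662. Without those arrays the differences between mus and dom were 0.59 for Ccr6 (adjusted p = 0.00601, limma) and 0.69 for Ccl12 (adjusted p = 0.011, limma). Il6st stood at 0.2767 on liver/kidney ssp 5, beside 0.0562 to 0.1335, and Il10ra at -0.5214 on testis ssp 2, beside -0.1055 to 0.0437.

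The limma test of differences between tissues picked 9 results. The difference between mus and dom in Ccl12 was larger in liver/kidney than in testis by 0.8654. The difference between spretus and the musculus groups was larger in brain than in liver/kidney by 0.4268 for Ccr10. Brain minus testis it was -1.39 for Cxcl12, -0.4975 for Il31 and -0.5902 for Ccr6. Liver/kidney minus testis it was -0.7024 for Cxcl12, -0.5845 for Ccr6, -0.5195 for Ccl7 and -0.6229 for Ccl28. The same members were called without the animal as a block.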

How the results depend on the processing

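Of the 29 called results 0 changed sign under any alternative, and 5 kept their call in every run that left out 1 array: testis Cxcl12 and Il18bp, and liver/kidney Ccr6, Ccl12 and Ccl8. The first 2 of these also passed under every other setting. Centring, the filters on missing values and fitting only the groups of a contrast lost none of the 29 calls. For the 25 spretus results that last fit repeats the main one, as their contrast uses all groups. Every called probe had a value on all 24 arrays of its tissue, and array medians were -0.0449 to 0.0553. These settings could thus change little. Members called in brain between spretus and the musculus groups numbered 8, and 23 with array weights (21.7%, beside 15.5% of all probes), 2 and 3 with the first or second spot of each pair (beside 1.91% and 2.02%), and 3 with the array set as a random block (beside 3.7%). In liver/kidney they numbered 10, and 3 with array weights (beside 3.48%), 6 with the second spot (5.97%), 0 with the random block (0.547%) and 6 without the later array (4.65%). In testis they numbered 7, and 3 with quantile normalisation (2.34%), 4 with the array set as a term (5.23%) and 4 as a random block (7.42%). For cas 2 were called in brain with no filter (0.584%) and 1 in liver/kidney without the later array (1.97%). For mus minus dom 2 were called in brain with quantile normalisation (1.56%), 1 with array weights (1.86%), and in liver/kidney 2 instead of 4 with the first spot (0.419%). The cause of these shifts was not tested. The array set as a term was not run in liver/kidney, where it is confounded with the groups. Within array set 2, with fewer arrays, none of the spretus calls of brain and liver/kidney passed. Within set 1 all 4 liver/kidney calls of mus minus dom passed. That set holds all 6 mus and all 6 dom arrays of liver/kidney and gives the same differences, so it is no separate check.

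With 1 array left out, spretus calls ranged from 1 (without spretus 1) to 10 (without cas 3) in brain, from 6 (without spretus 2) to 14 (without spretus 1) in liver/kidney and from 2 (without spretus 2) to 10 (without spretus 3) in testis. Cas calls ranged from 0 to 6 in brain and 0 to 1 in liver/kidney (without cas 1), ssp calls from 0 to 5 in brain, and mus minus dom calls from 2 to 4 in liver/kidney (2 without dom 1, dom 13 or mus 4). All other counts were 0 in each such run.

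With the animal number as a replicate block, spretus calls fell to 4, 5 and 2 in brain, liver/kidney and testis, and mus minus dom calls in liver/kidney to 0, beside 1.57%, 3.13%, 5.22% and 0.0484% of all probes. In the main fit the numbers were taken to name different animals in different groups. Same-numbered arrays of different groups deviated together with a median r of -0.009, 0.002 and -0.033 in brain, liver/kidney and testis. For other pairs the medians lay between -0.002 and 0.0. In testis single same-numbered pairs ran from -0.186 to 0.324, and other pairs from -0.382 to 0.417. A median over all probes cannot exclude an effect shared by some probes or pairs.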
